A study of Mus musculus with 9 samples.

Results

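Accessible chromatin at 9 genes of the B lymphocyte lineage was followed in sorted CD8 T cells: Ebf1, Pax5, Blk, Ms4a1, Cd79a, Cd79b, H2-Aa, H2-Ab1 and Ciita. Their accessible regions were taken from 9 deposited peak lists, merged wherever peaks shared at least 1 base into 62963 union regions. A union region was kept when it overlapped the body of one of the 9 genes on mm10, or when its nearest protein-coding gene end within 100 kb was an end of one of them. This gave 33 regions, 6 each at Ebf1 and Pax5, 5 each at Blk and Ciita, 4 each at H2-Aa and H2-Ab1, 2 at Cd79b, 1 at Cd79a and 0 at Ms4a1. The genes were chosen with their differences between day 4 and day 8 known, so differences from day 4 are given as a description with no test. The comparison of day 21 with day 8 uses the same day 8 lists, so its p-values are not independent of that choice.

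Open chromatin was mapped by ATAC-seq, where DNA that the Tn5 enzyme can reach is cut and tagged. The cells were P14 CD8 T cells, whose transgenic receptor sees the LCMV (lymphocytic choriomeningitis virus) glycoprotein. Per the labels, 500000 naive donor cells low in CD44 and positive for the GFP of a TCF-1 reporter were transferred into mice of strain C57BL/6 at day 8 after B16.F10 melanoma cells expressing that glycoprotein were engrafted. Donor cells positive for CD45.1, CD44 and CD8 were sorted from the tumor-draining lymph nodes 4, 8 or 21 days after the transfer, with 3 libraries of 50000 cells per day. All 3 groups carry the same genotype label (WT), the same tumor and the same donor cells, no group lacked a tumor, and the labels give no age. In the labels the genotype and time point fields hold each other's values, and the days were read from the titles.

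B cell identity rests on a small set of transcription factors. EBF1 starts the B lineage program in progenitors, and PAX5 commits cells to it while repressing genes of other lineages. Their targets include Cd79a and Cd79b, which encode the signalling chains of the B cell receptor, Blk, a Src family kinase, and Ms4a1, which encodes CD20. B cells also present antigen on MHC class II, whose alpha and beta chains in the I-A molecule are the products of H2-Aa and H2-Ab1. CIITA, a coactivator that binds no DNA by itself, switches class II genes on in antigen-presenting cells through factors bound to their upstream S, X and Y boxes. Mouse T cells are generally regarded as lacking surface MHC class II.

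The 250 bases before the RefSeq start (GRCm38.p6, the assembly of mm10) are shown for the start of H2-Aa, which was open on the later days, and for those of Cd79a, Pax5 and Ebf1, which no list called. The table of starts held 4 of the 9 genes, with 2 starts for Ebf1, of which the outer one is printed. Sequences run 5′ to 3′ on the gene's strand, and capitals mark matches to the motifs named after them. The windows are chr17:34287824-34288073 on the minus strand, chr7:24897247-24897496 on the plus strand, chr4:44710695-44710944 on the minus strand and chr11:44617850-44618099 on the plus strand.
H2-Aa: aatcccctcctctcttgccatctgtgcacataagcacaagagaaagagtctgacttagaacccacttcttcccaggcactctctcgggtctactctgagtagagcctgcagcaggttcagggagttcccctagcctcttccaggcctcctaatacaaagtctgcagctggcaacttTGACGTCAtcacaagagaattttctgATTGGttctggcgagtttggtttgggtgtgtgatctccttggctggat
Cd79a: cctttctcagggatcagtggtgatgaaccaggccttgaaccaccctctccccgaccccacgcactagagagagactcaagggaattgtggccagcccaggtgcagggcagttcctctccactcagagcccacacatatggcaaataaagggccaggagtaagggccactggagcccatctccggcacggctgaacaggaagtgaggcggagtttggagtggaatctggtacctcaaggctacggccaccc
Pax5: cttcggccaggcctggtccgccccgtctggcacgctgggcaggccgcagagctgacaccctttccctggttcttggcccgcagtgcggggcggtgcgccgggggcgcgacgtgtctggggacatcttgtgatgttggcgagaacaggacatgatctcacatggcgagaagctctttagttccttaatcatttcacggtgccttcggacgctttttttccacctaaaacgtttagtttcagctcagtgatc
Ebf1: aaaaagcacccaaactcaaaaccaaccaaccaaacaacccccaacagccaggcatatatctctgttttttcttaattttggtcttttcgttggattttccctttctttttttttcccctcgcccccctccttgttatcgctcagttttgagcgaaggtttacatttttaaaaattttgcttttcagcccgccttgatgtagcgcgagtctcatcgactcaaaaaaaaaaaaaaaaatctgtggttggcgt

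The search for 6 motifs covered both strands of these windows and of all 32619 start windows in the RefSeq table. In the H2-Aa window, TGACGTCA, the cyclic AMP response element form that X2 boxes of class II promoters resemble, began 74 bases before the start, and it is found in 1.56% of all windows. CCAAT on the other strand (ATTGG), the core of the Y box bound by NF-Y, began 48 bases before the start, and 34.0% of all windows hold it. Neither matched in the windows of Cd79a, Pax5 and Ebf1, and the remaining motifs matched in none of the printed windows. These were the palindromic EBF site (0.782% of all windows), ATGCAAAT for octamer factors (1.61%), TGANTCA for AP-1 (6.78%) and CCGGAAGT for ETS factors (2.90%). No match overlapped another, and a match is a description of the letters only. The search was limited to these 6 fixed forms, and no PAX5 motif was among them. A window without a match, such as that of Cd79a, is therefore not shown to lack sites for these factors in other forms.

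The lists held 19499 to 22250 peaks on day 4, 47513 to 50835 on day 8 and 46492 to 51671 on day 21. They give no read totals, but fold enrichment and p of a peak fix a whole number of tags at its summit and a local background in tags. The smallest such background in a list, which scales with depth, was 2.62 to 3.38 tags on day 4, 2.14 to 2.63 on day 8 and 2.33 to 3.08 on day 21. Between lists of 1 day, summit tags varied less than counting noise would give (chi-square per region 0.433 to 0.476 in 9 pairs), against 0.895 to 1.18 in the 27 pairs of different days. Nothing in the labels ties lists to separate animals, so each SD and p below describes the spread between these lists, which may be technical. In the T cell list, Cd3e, Cd3g, Cd8a, Lat, Lck and Zap70 had a called start in all 9 lists, and all 13 genes had a called region in every list. The starts of Cd247 and Cd5 were called in 2, 3 and 3 lists of days 4, 8 and 21, and that of Cd3d in 0, 3 and 1. Of the 9 T cell genes with a start window, on average 81.5%, 100% and 92.6% had a called start on these days. Over all genes the shares were 44.0%, 53.7% and 52.9%.

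At the 9 loci together, 2, 1 and 1 regions were called in the day 4 lists, 21, 22 and 24 in the day 8 lists, and 19, 23 and 24 in the day 21 lists. The means were 1.33 ± 0.577 (SD, n = 3 lists), 22.3 ± 1.53 and 22 ± 2.65. Every later list lay above every day 4 list, while days 8 and 21 overlapped. Of the 33 regions, 15 were called in 3 of 3 day 8 lists and 0 of 3 day 4 lists, beside 25.7% of all union regions. For day 21 against day 4 the number was 14, beside 25.3%, and the reverse (0 of 3 later lists, 3 of 3 day 4 lists) held for 0 regions, beside 0.00953% of all union regions for day 8 and 0.00794% for day 21. Since the genes were chosen on this contrast, nothing is read from these counts. The day 4 lists were also much shorter than the others, list length and day cannot be told apart here, and a region without a call is not shown to be closed. In bulk libraries a peak from a few cells of another type and a weak peak in all cells cannot be told apart either.

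**Figure D1:**
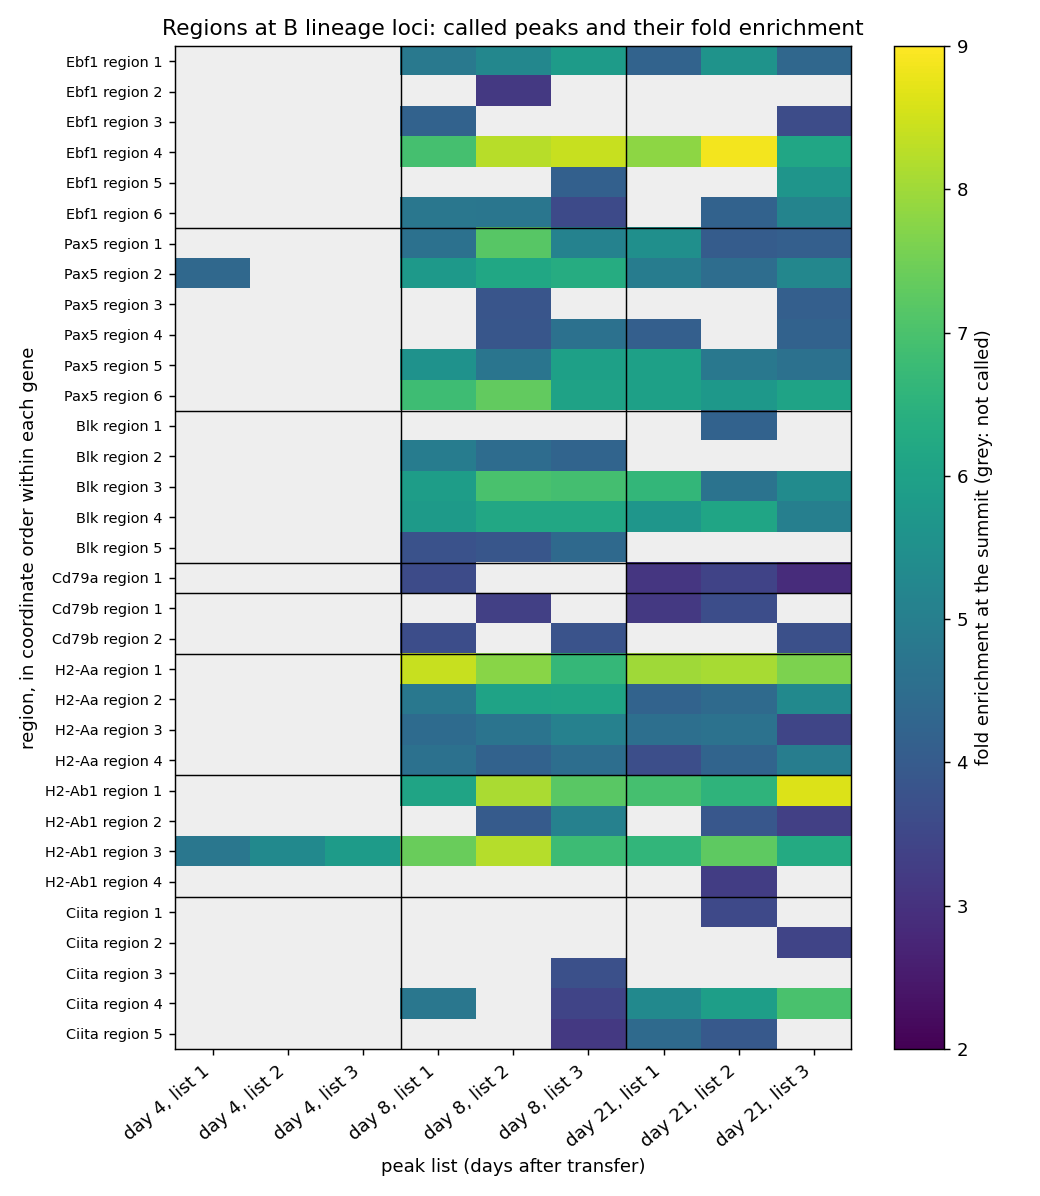
Each row is 1 of the 33 regions, each column 1 peak list, and colour gives the authors' fold enrichment at the summit over local background, with grey where no peak was called. Day 4 columns are empty but for H2-Ab1 region 3 in all 3 lists and Pax5 region 2 in list 1.

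Ebf1 lies at chr11:44618100-45008096. No day 4 list called any of its 6 regions, all 3 day 8 lists called 4, and the day 21 lists called 2, 3 and 5. The day 21 lists straddled the day 8 value. Its strongest region, chr11:44892798-44893338, lies deep in the gene, 115 kb from the nearer end. Its summit held 23, 28 and 30 tags in the day 8 lists and 27, 32 and 24 in the day 21 lists, over backgrounds of 2.46 to 3.08 tags. In day 21 list 2 that peak, with a fold enrichment of 8.87, was the strongest of all peaks at the 9 loci. The other region called in all 6 later lists, chr11:44610909-44611339, is 6.76 kb before the gene, with 14 to 27 tags.

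Neither RefSeq start of Ebf1 was in a called peak of any list. The nearest region to the outer start, chr11:44616948-44617336, ends 764 bp before it and was called in day 8 list 1 (18 tags) and day 21 list 3 (15 tags). The region at the far end of the gene, chr11:45008053-45008452, had a peak in every day 8 list and in day 21 lists 2 and 3, with 12 to 20 tags.

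Pax5 lies at chr4:44524748-44710694 on the minus strand, and all 6 of its regions are inside the gene. The day 4 lists called 1, 0 and 0 of them, the day 8 lists 4, 6 and 5, and the day 21 lists 5, 4 and 6. The later days did not differ beyond their spread, and both lay above day 4. The single day 4 call, in list 1, was at chr4:44624544-44625281 with 15 tags over 2.67, a peak at percentile 14.9 of that list by p. The same region held 19, 22 and 25 tags on day 8 and 16, 14 and 21 on day 21.

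The Pax5 region nearest the start, chr4:44704147-44704858, lies 5.84 kb inside the gene. It held 28, 36 and 29 tags on day 8 and 23, 20 and 29 on day 21, and by its median percentile of p (50.2) it ranked highest of the 6. The 2 further regions in all 6 later lists, chr4:44564612-44564935 and chr4:44674894-44675343, held 13 to 27 and 22 to 34 tags. The start itself was called in no list.

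**Figure D2:**
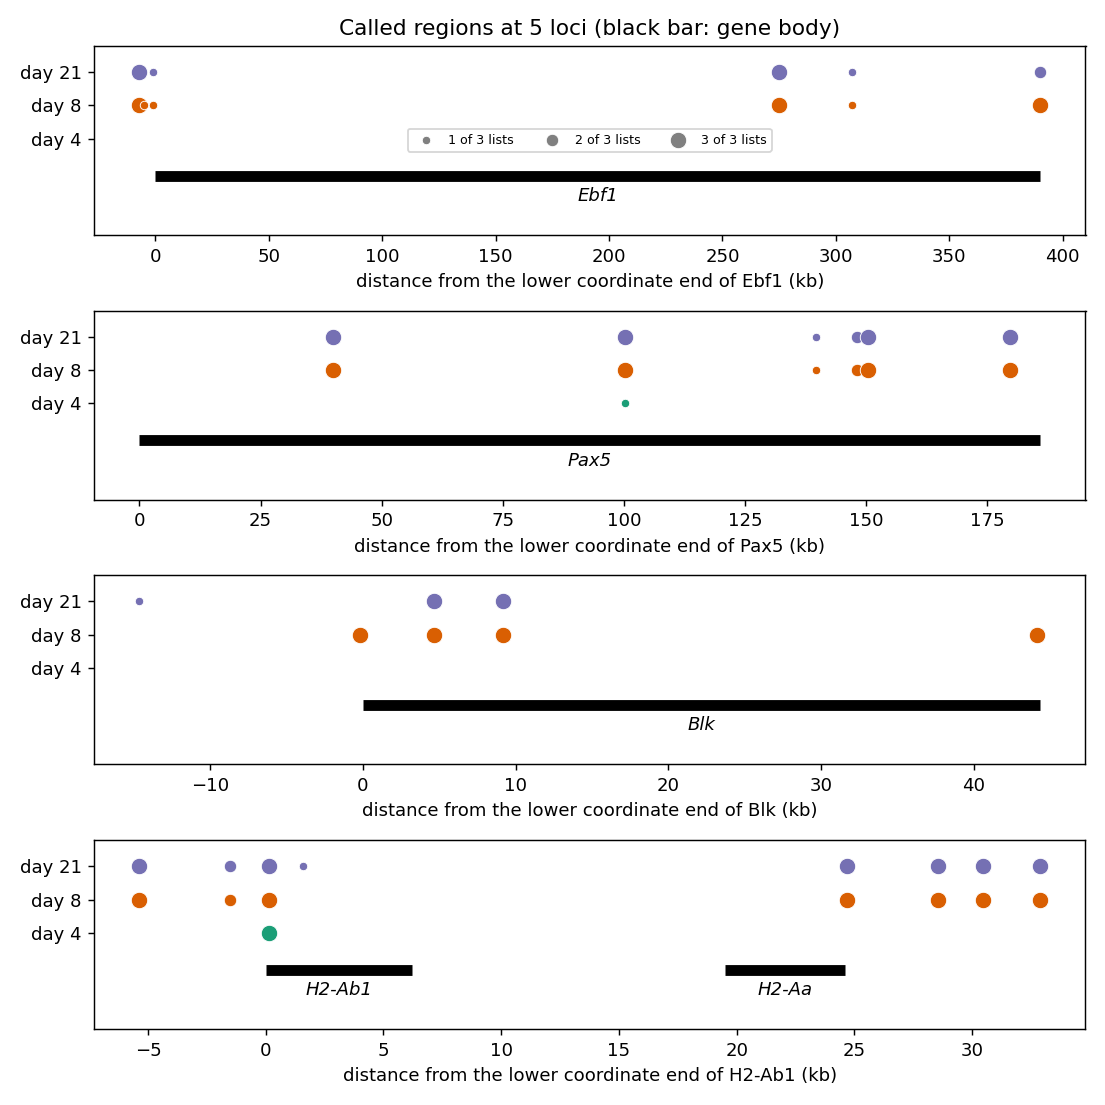
Positions of called regions at Ebf1, Pax5, Blk and the H2-Ab1 and H2-Aa pair, in kb from the lower-coordinate end of the gene named on each axis, with black bars for gene bodies, 1 row per day and point size for the number of lists (1 to 3). The Pax5 points are all within the gene, the only day 4 point for 3 lists is at H2-Ab1, and 2 of the Blk points of day 8 have none above them on day 21.

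The genes with the closest patterns were sought by the Euclidean distance between shares of union regions called in the 9 lists, among 7469 genes with 3 to 12 union regions. For Ebf1 they were Syt13 (distance 0.187), Il1r1 (0.205) and Srgap3 (0.208). For Pax5 they were Macroh2a1 (0.256), Dock5 (0.262) and Bsn (0.276). These are likenesses in 9 vectors of calls that share the lists' lengths.

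Blk lies at chr14:63372837-63417187. No day 4 list called any of its 5 regions, each day 8 list called 4, and the day 21 lists called 2, 3 and 2. The day 21 lists were all below the day 8 lists and above the day 4 lists. Both regions inside the gene near its lower end, chr14:63377282-63377758 and chr14:63381884-63382194, were called in all 6 later lists. The first held 30, 42 and 43 tags on day 8 and 34, 22 and 34 on day 21, and the second 27, 34 and 38 and then 28, 30 and 29.

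The difference between the later days at Blk came from both of its gene ends. The region at the upper end, chr14:63416699-63417289, had 11, 12 and 15 tags in the day 8 lists over backgrounds of 2.18 to 2.64, and the one just beyond the lower end, chr14:63372509-63372820, had 20, 22 and 22. No day 21 list called either. These 2 were the only ones of the 33 regions called in 3 of 3 day 8 and 0 of 3 day 21 lists, beside 1.09% of all union regions, and they belong to 1 gene. At −log10 q of at least 4, or when a peak had to cover 0.5 of a region, 1 region met this rule (0.986% and 1.28% of all union regions), and among the strongest 19499 peaks of each list 0 did (0.532%). No region of the 33 was called in 3 of 3 day 21 and 0 of 3 day 8 lists, beside 1.02% of all union regions, but without day 8 list 1 there was 1, the region at Cd79a.

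Ms4a1 and the B cell receptor chain genes Cd79a and Cd79b had few or no called regions. Ms4a1, at chr19:11249679-11266149 in a cluster of related genes, had none in any list, and the closest union region to it lay 26.8 kb away and was nearest to Ms4a14. The only region of Cd79a (chr7:24897497-24901858) was at the far end from its start, at chr7:24901792-24902208. It was called in 0 day 4 lists, in day 8 list 1 (37 tags) and in all 3 day 21 lists (29, 29 and 30 tags), over a high local background of 7.82 to 9.72 tags and with a fold enrichment of at most 3.61. The next region, 0.961 kb beyond Cd79a, is nearest to Arhgef1. The start of Cd79a was in no called peak.

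At Cd79b (chr11:106311341-106314562), every later list called exactly 1 of 2 regions and no day 4 list called any. The region inside the gene, chr11:106313491-106313963, was called in day 8 list 2 and day 21 lists 1 and 2 with 14, 12 and 14 tags. The region over the upper end of the gene, chr11:106314232-106314751, was called in the 3 other lists with 14, 18 and 18 tags. Peaks of both regions ranked low, at percentiles 0.481 to 12.3 of their lists by p.

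The class II chain genes had the region that was called in most lists and, among the 4 genes with a start window, the only called start. H2-Ab1 (chr17:34263227-34269418) and H2-Aa (chr17:34282744-34287823) are neighbours in the MHC, so their regions lie close together. The region over the lower end of H2-Ab1, chr17:34263006-34263712, was the only one of the 33 called in all 9 lists, beside 24.0% of all union regions. Its summit held 20, 21 and 26 tags on day 4, 46, 47 and 47 on day 8, and 36, 39 and 45 on day 21. Day 4 was lowest and day 8 highest, with no overlap between days, but tags are not scaled to depth. The fold enrichment over local background was 4.77, 5.31 and 5.84 on day 4, 7.41, 8.22 and 6.80 on day 8, and 6.61, 7.27 and 6.28 on day 21, so that days 8 and 21 overlapped on that scale.

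H2-Ab1 had 1 called region in each day 4 list, 2, 3 and 3 in the day 8 lists and 2, 4 and 3 in the day 21 lists. Its region 5.13 kb beyond the lower end, chr17:34257635-34258097, was called in all 6 later lists with 24 to 44 tags. In day 21 list 3 it reached a fold enrichment of 8.62 and was the strongest peak at the 9 loci.

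H2-Aa had 4 regions, with 0 called in every day 4 list and 4 in every later list. No other of the 9 genes had all of its regions called in every later list. The region over its start, chr17:34287704-34288111, which covers the printed window, held 31, 35 and 34 tags on day 8 and 35, 33 and 37 on day 21, at fold enrichments of 6.65 to 8.42. The 3 other regions lie 3.79, 5.58 and 8.05 kb upstream of that start, towards H2-Eb1, with 20 to 45 tags. H2-Aa was the only gene of the 4 with a RefSeq start window whose start was called, in 0 of 3, 3 of 3 and 3 of 3 lists of days 4, 8 and 21. Of 17274 protein-coding genes with such a window, 44.0% had a called start in a day 4 list on average, 53.7% on day 8 and 52.9% on day 21.

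Ciita, at chr16:10480014-10531064, varied between lists of a day. The day 4 lists called 0 of its 5 regions, the day 8 lists 1, 0 and 3, and the day 21 lists 2, 3 and 2. Days 8 and 21 overlapped, and day 8 list 2 was as low as day 4. The main region, chr16:10524849-10525234, inside the gene 5.83 kb from its upper end, held 19 and 16 tags in day 8 lists 1 and 3 and 24, 26 and 35 in the day 21 lists. Its other regions were called in 1 list each, with 11 to 16 tags, except for chr16:10536219-10536568, 5.16 kb beyond the gene, called in day 8 list 3 and day 21 lists 1 and 2. The annotated body of Dexi overlaps that of Ciita. By body or by nearest gene end, 4 of the 5 regions, all but chr16:10489547-10489793, were assigned to Dexi as well. Of these, chr16:10536219-10536568 lies inside Dexi and outside Ciita. No called region reached an end of Ciita.

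**Figure D3:**
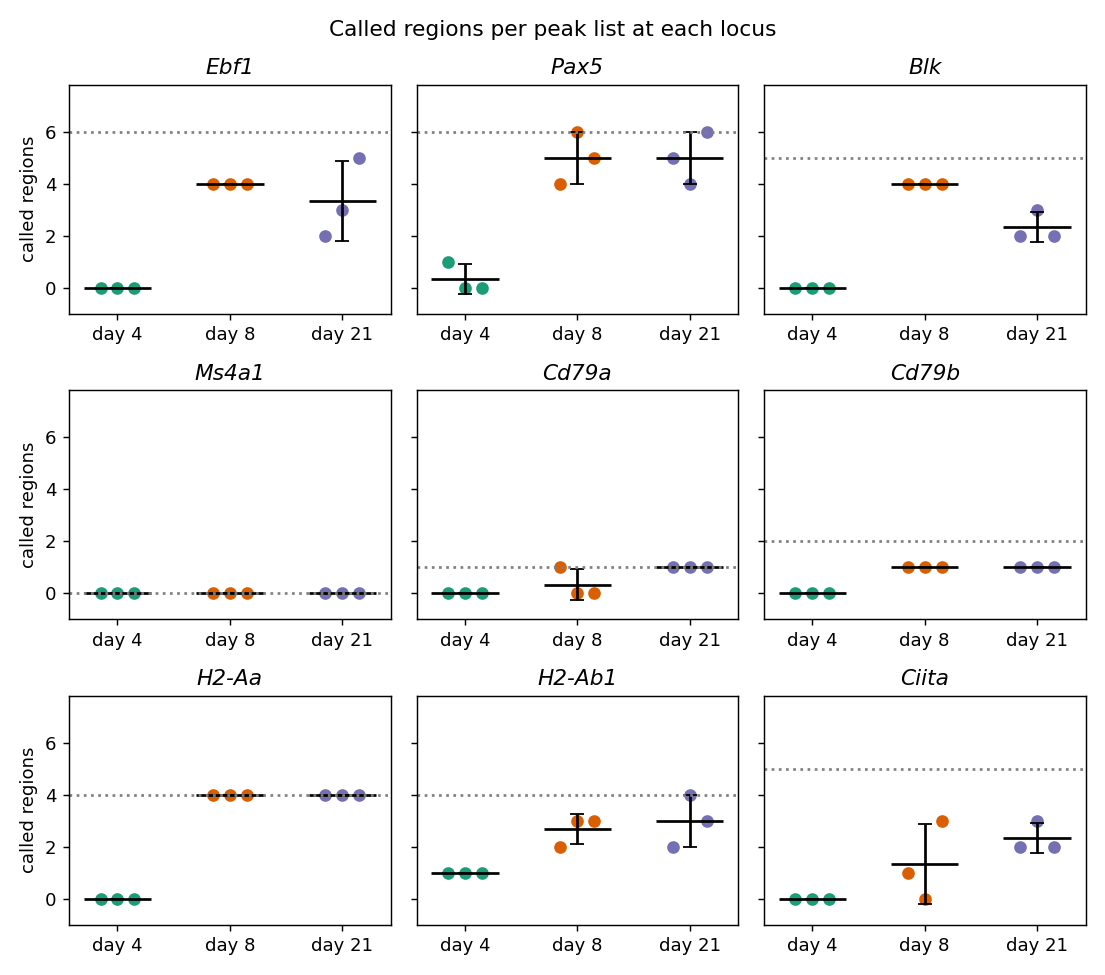
Called regions at each of the 9 genes, with 1 point per peak list, a bar for the mean ± SD of 3 lists and a dotted line at the number of union regions. H2-Aa goes from 0 to 4 in every list, Blk is lower on day 21 (2, 3 and 2) than on day 8 (4 in each), and Ms4a1 stays at 0.

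Day 21 was compared with day 8 over all 8223 genes with at least 3 union regions, which include 6 of the 9 genes. The number of called regions plus 0.5, relative to the length of the list, was fitted on the log2 scale with limma, and p-values were adjusted by Benjamini-Hochberg over all genes. None of the 6 passed at an adjusted p of 0.05, and 1 had an unadjusted p below 0.05. Of all genes 0.0243% passed (2 lower and 0 higher, and 8 lower without day 21 list 3), while 450 higher and 460 lower had an unadjusted p below 0.05. Blk had the largest fall (log2 difference −0.67 ± 0.22 SE, adjusted p = 0.254, unadjusted p = 0.0102, limma), lower in 3 of 3 day 21 lists. Its difference between day 4 and day 8 was known when it was chosen, so neither p is that of an independent test. The regions at its gene ends were called in day 8 lists only. Without division by list totals Blk passed (−0.69, adjusted p = 0.0493, limma), and over all alternatives its adjusted p ran from 0.0493 to 0.977. Ciita was at 1.03 ± 0.56 (adjusted p = 0.565, limma), and at 0.31 without day 8 list 2 and 1.67 without day 8 list 3. Ebf1 was at −0.29 ± 0.24 (adjusted p = 0.792, limma), and at −0.05 without day 21 list 1 and −0.54 without day 21 list 3. H2-Aa, Pax5 and H2-Ab1 were at 0.01, 0.01 and 0.13 (adjusted p = 0.987, 0.987 and 0.912, limma), against a median of 0.01 over all genes. The median of the 6 was also 0.01. The genes with fewer than 3 regions, Ms4a1, Cd79a and Cd79b, were not in this fit.

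Against day 4, described without a test, Blk, Ebf1 and H2-Aa shared one log2 difference on day 8, 1.87, because each went from 0 to 4 regions in every list, and the value rests on the 0.5 added. Pax5 was at 1.61, Ciita at 0.16 and H2-Ab1 at −0.24, with −0.14 as the median of all 8223 genes. On day 21 the values were 1.88 for H2-Aa, 1.62 for Pax5, 1.57 for Ebf1, 1.19 for both Blk and Ciita and −0.11 for H2-Ab1, with a median of −0.16. H2-Ab1 had more regions on the later days than on day 4, and is near 0 only relative to the longer lists. Both comparisons share the day 4 lists.

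The peaks at these loci had median ranks below the middle of every later list. The −log10 p of a peak was ranked among all peaks of its list, so the median of a whole list is 50. The median of the B lineage peaks was 36.9, 35.3 and 47.8 in the day 8 lists and 30.6, 29.3 and 34.5 in the day 21 lists, and the highest percentile in any list was 74.5, at H2-Ab1. Summits in the later lists held 11 to 47 tags, while in the day 4 lists the weakest peak had 10 or 11 and the fifth percentile of all peaks was 15 or 16. Of the 133 B lineage peaks in later lists, 19 held fewer than 15 tags. The fifth percentile of all peaks in those lists was 12 to 15 tags, and their share under 15 tags was not counted. With each list held to its strongest 19499 peaks, the day 8 lists kept 2, 7 and 5 of their B lineage peaks and each day 21 list kept 3. These were 9.52%, 31.8% and 20.8% on day 8 and 15.8%, 13.0% and 12.5% on day 21. Over all peaks, 19499 were kept of 47513, 48085 and 50835 on day 8 and of 47096, 46492 and 51671 on day 21. No region was then called in 3 of 3 day 8 and 0 of 3 day 4 lists, in place of 15, and for day 21 against day 4 there was 1 in place of 14. Over all union regions the share was 1.37% in place of 25.7% and 1.42% in place of 25.3%.

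**Figure D4:**
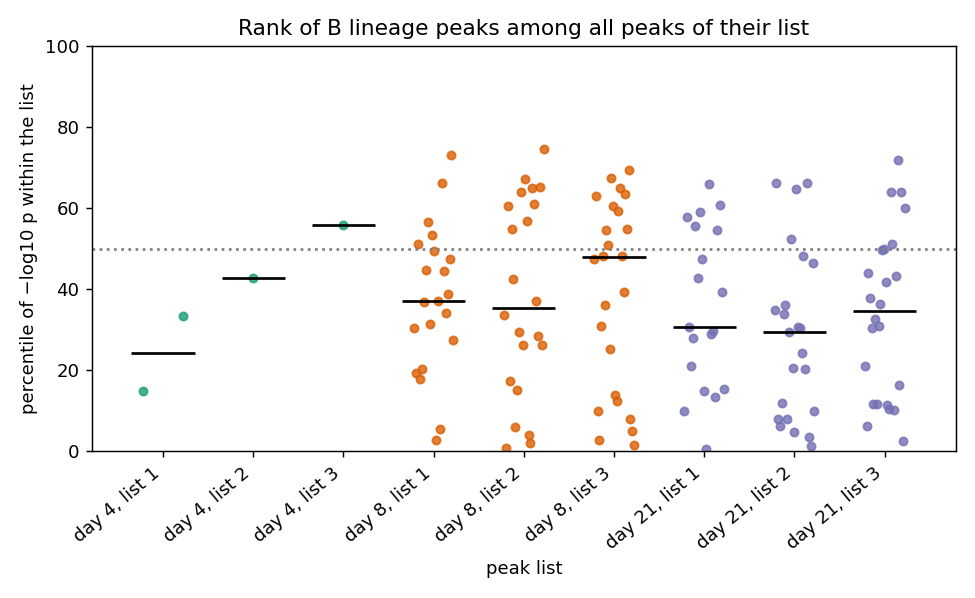
Percentile of each B lineage peak by −log10 p among all peaks of its list, 1 point per peak, with a bar at the median and a dotted line at 50. The medians of all 6 later lists are between 29.3 and 47.8, and no point is above 74.5.

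Of the 33 regions, 22 overlapped the body of one of the 9 genes, 10 lay outside all genes, at most 14.5 kb from one of the 9, and 1 was inside Dexi alone. Within 1 kb of a gene end there were 9 of the 33 (27.3%), against 22.4% of all union regions. Widths ran from 200 to 792 bp with a median of 408 bp, against 461 bp. Of the 9 near gene ends, 1 (H2-Ab1, 11.1%) was called in any day 4 list, against 67.6% of all such regions. Of the 14 called in all 6 later lists (42.4% of the 33, against 54.9% of all), any day 4 list called 2, at H2-Ab1 and Pax5, while 65.0% of all regions of that kind had a day 4 call. Since the genes were chosen with their differences between day 4 and day 8 known, nothing is read from these low day 4 shares. Calls in a single list made up 6 of the 33, against 15.9% of all union regions.

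Other genes of the lineage and of class II presentation were taken as lists, and their differences from the 9 genes were not tested. The list of 24 further B lineage genes held 77 regions, of which 25.0 ± 1.00 (SD, n = 3), or 32.5%, were called on day 4, 58.7 ± 2.89 on day 8 and 61.0 ± 2.00 on day 21. Over all union regions the day 4 share was 30.2%, and at the 9 genes it was 4.04%. The 9 genes were chosen with their differences between day 4 and day 8 known, so their low day 4 share is not read as a result. On days 8 and 21 the 24 genes were at 76.2% and 79.2%, against 74.5% and 73.9% of all union regions. Of the 21 genes of that list with a start window, 5 to 6 had a called start in the day 4 lists and 7 in each later list. On average these were 25.4%, 33.3% and 33.3% on days 4, 8 and 21, below the 44.0%, 53.7% and 52.9% of all genes. In that list Cd37, Pou2af1, Ralgps2 and Tnfrsf13c had a called start in all 9 lists, while Fcer2a, Fcrla and Vpreb1 had no union region at all. Some of the 24, such as Cd37 and Cxcr5, are also expressed by T cells.

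The other class II pathway genes had 32 regions in 11 genes, with 11.3 ± 2.08 called on day 4, 28.0 ± 2.00 on day 8 and 26.0 ± 1.73 on day 21. These were 35.4%, 87.5% and 81.25% of the 32, against 30.2%, 74.5% and 73.9% of all union regions. Of the 9 genes with a start window, 2 to 4 had a called start in the day 4 lists, 5 to 7 on day 8 and 6 to 7 on day 21. On average these were 33.3%, 70.4% and 70.4%, against 44.0%, 53.7% and 52.9% of all genes. Rfxank and Rfx5, whose products belong to the complex that binds the X box, had a called start in all 9 lists. H2-Eb1, the neighbour of H2-Aa and a class II beta chain gene, had 0, 0 and 1 called regions on day 4, 4, 5 and 4 on day 8 and 3 in each day 21 list. Peaks over its start were present in 1 of 3 day 4 lists and in every later list. Cd74, which encodes the invariant chain, had 0, 1 and 0 regions on day 4, 2, 1 and 1 on day 8 and 2 in each day 21 list.

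Genes of other cells that a sort could carry also had more called regions on the later days, and so did all union regions together. Of all union regions, 30.2% were called on day 4, 74.5% on day 8 and 73.9% on day 21 (means of 3 lists). Of 14 myeloid and dendritic cell genes with 54 regions, 10 to 11 regions were called in the day 4 lists, 36 to 42 in the day 8 lists and 32 to 41 in the day 21 lists. On average these were 19.8%, 72.2% and 65.4% of the 54, below the shares of all union regions on each day. Of the 14 genes, 6 had a called region in each day 4 list, 9 to 11 in the day 8 lists and 10 to 12 in the day 21 lists. Itgam, an integrin chain of myeloid cells, had 2, 1 and 1 called regions on day 4, 5 in each day 8 list and 5, 5 and 6 on day 21, and its start was called in 0, 3 and 3 lists of the 3 days. Spi1, which encodes the transcription factor PU.1 of myeloid and B cells, had 1 region in each day 4 list, 3, 4 and 5 on day 8 and 6, 4 and 5 on day 21. The start of Flt3, a receptor of dendritic cell progenitors, was called in 0, 3 and 3 lists, and the 1 region of Cd14 in 0, 3 and 3. Lyz2 had no union region, and the macrophage genes Csf1r and Adgre1 had 1 each, called in a single day 21 list and in no list of days 4 and 8. Of the 10 of these genes with a start window, 0 starts were called on day 4 and 2 to 3 on the later days. Plasma cell genes had 3 to 4, 7 to 8 and 6 to 9 of 12 regions called (on average 27.8%, 61.1% and 63.9%), and Mzb1 had no union region. T cell genes had 34 to 41, 92 to 99 and 91 to 104 of 125 (on average 30.4%, 76.5% and 76.8%). Their part in the result at the 9 loci, like that of list length, was not tested. In the fit of day 21 against day 8, none of the genes tested in these lists passed (limma). Those numbered 10 further B lineage, 4 class II, 2 plasma cell, 12 T cell and 6 myeloid genes, and 2 of them, the myeloid genes Itgax (−1.21) and Fcgr1 (−0.88), had an unadjusted p below 0.05.

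**Figure D5:**
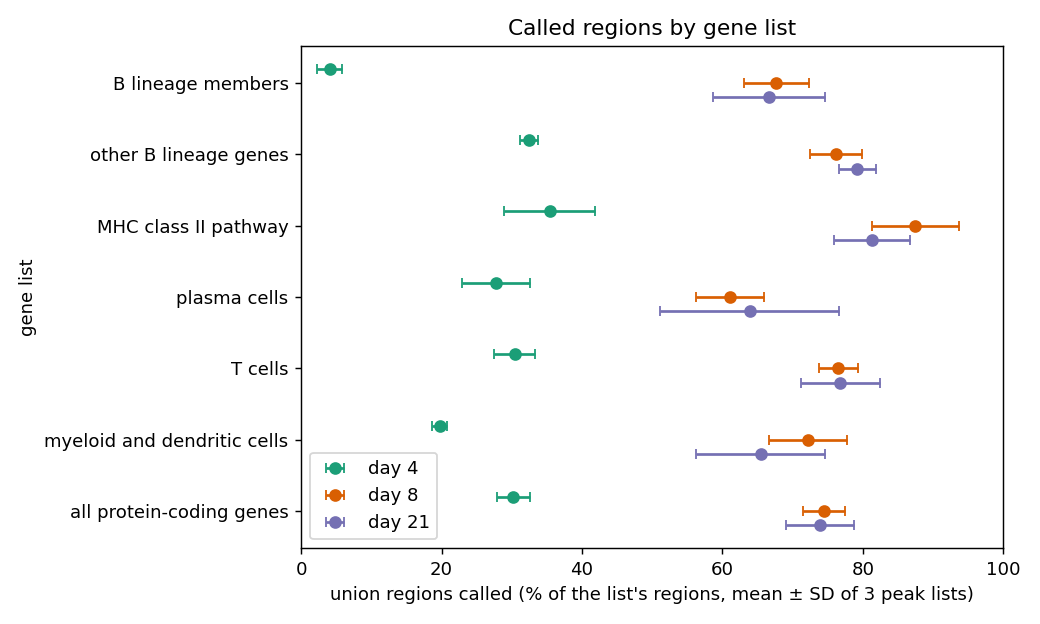
Share of each list's union regions that were called, as the mean ± SD of 3 peak lists per day. The row labelled all protein-coding genes holds all 62963 union regions. On day 4 the 9 genes are at 4.04% and all union regions at 30.2%. On days 8 and 21 the 9 genes are at 67.7% and 66.7% and all union regions at 74.5% and 73.9%. The 9 genes were chosen with their differences between day 4 and day 8 known, so nothing is read from their low day 4 share.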

How the data were processed

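Per the submitters' processing notes, the authors used BWA 0.7.15, Picard, MACS2 and deepTools 2.0 with mm10, but the notes at hand give neither roles nor settings, nor how multi-mapped reads or the Tn5 offset were handled. The authors deposited 1 narrowPeak list per library, so peaks were called per sample. Each deposited list gives a score (10 times −log10 q), a fold enrichment at the summit, and −log10 of the p-value and q-value. These values were used only to describe and rank peaks and to recover summit tags by the Poisson formula of MACS2, whole for at least 99.99% of peaks of each list (tolerance 0.001). Read totals per sample are unknown, and depth is reflected only in the smallest background of each list.

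Peaks on chromosomes 1 to 19 and X were merged into union regions. A list called a region when a peak shared at least 1 base with it. Genes and starts came from RefSeq tables for GRCm38.p6, with 1-based coordinates. Called regions per gene were fitted with limma 3.58.1 (R 4.3.3; robust, with a mean trend) over all 9 lists with day as the only factor, leaving 6 residual degrees of freedom. The fit was also run on simulated data in which some genes lost a larger share of called regions on day 21 than Blk did. Changes of the size at Blk were not simulated, so that run does not show whether the fit would find them. Python 3.11.15, pandas 2.3.3, numpy 2.4.6 and scipy 1.17.1 did the rest. The 9 genes and the gene lists were chosen with earlier results of these data known. All 9 are named, with list genes whose start was called in every list or that had no union region, and the 3 genes nearest in pattern to each of Ebf1 and Pax5. Cxcr5, H2-Eb1, Cd74, Csf1r, Adgre1, Itgam, Spi1, Flt3, Cd14, Itgax, Fcgr1 and genes of neighbouring regions fall outside that rule and were chosen after their values were seen. Cd3d, Cd247 and Cd5 also fall outside that rule. Alternatives covered pseudocount, filter, division by list totals, peak strength, stricter q, 50 kb, overlap, replicate block, and leaving out each list.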

Additional observations from a re-analysis of the deposited data

How the results depend on the processing

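Region counts at the 9 loci kept their size under most alternatives. Among the strongest 19499 peaks of each list, 4.67 regions were called per list on day 8 and 3.00 on day 21, gained regions numbered 0 for day 8 and 1 for day 21 against day 4, and regions lost from day 8 to day 21 numbered 0. At −log10 q of at least 4, 19.7 regions were called per day 8 list and 1 was lost from day 8 to day 21. With a peak covering at least 0.5 of the region, 0.667 were called per day 4 list and 1 was lost. Leaving out 1 list gave 0 to 1 regions gained on day 21 against day 8 (1, at Cd79a, without day 8 list 1), 15 to 17 on day 8 and 14 to 16 on day 21 against day 4. Without the region inside Dexi, an alternative chosen after seeing the data, no count moved by more than 1.5 times.

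In the fit of day 21 against day 8, genes higher and lower numbered 0 and 2, and 86 and 177 with no filter on union regions, 92 and 121 without division by list totals (1 of the 9 genes, Blk), 66 and 89 on the strongest peaks, and 2 and 11 at the stricter q. Within 50 kb 2 genes were higher, and with at least 6 regions 0 were lower. Leaving out 1 list gave 0 to 2 higher (2 without day 4 list 2) and 0 to 8 lower (8 without day 21 list 3, 1 without day 21 list 1 or 2, and 0 without day 4 list 1 or any day 8 list). With the replicate number as a block 0 genes were lower. Of 9 same-number pairs of lists, 0 deviated together by a correlation over 0.1 (−0.03 to 0.06). The spread between lists of a day may be technical, so these correlations cannot show whether the numbers pair the lists. Leaving out 1 list, Ciita ran from 0.31 to 1.67 and Ebf1 from −0.54 to −0.05, and neither passed. Over its alternatives Blk ran from −0.87 to −0.44, with adjusted p from 0.0493 to 0.977 (limma). The causes of these shifts were not tested. A region without a call is not shown to be closed.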
